A study of Mus musculus with 6 samples.

Results

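A set of 10 genes of the insulin-like growth factor (IGF) system was measured by RNA-seq in BV2 cells, an immortalized mouse microglia line. They are the ligand gene Igf1, the receptor genes Igf1r, Igf2r and Insr, and the binding protein genes Igfbp2, Igfbp3, Igfbp4, Igfbp5, Igfbp6 and Igfbp7. The 10 genes were taken by name from the 21899 gene identifiers of the raw count table, and each symbol matched 1 identifier. The comparison was between 3 libraries of cells that carried an shRNA lentivirus against TonEBP (sh-TonEBP), whose gene is Nfat5, and 3 libraries of cells that carried a scrambled shRNA lentivirus (sh-NC). Cells of both groups were selected with puromycin, and the labels name no LPS for them. The methods describe a single silencing sequence, so an effect of that sequence other than on Nfat5 cannot be told apart from the loss of TonEBP. Whether the 3 libraries per group stem from independent cultures is stated neither in the labels nor in the methods, so the p-values rest on a spread that could be technical. The question was which genes lie downstream of TonEBP, a transcription factor that is best known for the response to high salt.

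The libraries held 13621188 to 16140042 counts in sh-TonEBP and 15288505 to 15555269 counts in sh-NC. Nfat5 itself had 3894, 4631 and 5257 counts in sh-TonEBP, against 9641, 11640 and 9652 counts in sh-NC. Its log2 fold change was -1.14. A trend of fold changes with transcript length and GC content, described below, was -0.75 for a transcript such as that of Nfat5. The trend thus had the same sign as the Nfat5 fold change and was a large part of it, and its cause was not tested. Levels are in CPM, that is, counts scaled to library size with TMM factors, and a gene was called where its Benjamini-Hochberg adjusted p in edgeR's quasi-likelihood test was under 0.05. Of 17 markers of microglia and leukocytes, 12 were under 1 CPM in every library. Among the 12, P2ry12, Siglech and C1qa were at 0, and Ptprc, Itgam, Spi1, Aif1 and Tyrobp had at most 3 counts in any library. The microglial label is thus only partly borne out by the RNA. Of the 17 markers 4 were tested, 2 were higher and 1 was lower. Tmem119 was higher, with 12.5 ± 0.818 CPM in sh-TonEBP and 4.87 ± 1.56 CPM in sh-NC, and Cd68 was lower, with 4.29 ± 0.796 CPM in sh-TonEBP and 13 ± 1.55 CPM in sh-NC (SD, n = 3 each).

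IGF-I and IGF-II signal through the receptor tyrosine kinase encoded by Igf1r, and insulin and IGF-II also through that of Insr. The product of Igf2r has no kinase and carries IGF-II and lysosomal enzymes bearing mannose 6-phosphate to the lysosome. The IGF binding proteins are secreted, hold the ligands away from the receptors or deliver them, and release them when proteases cut them. In the brain, microglia are a known source of IGF-I.

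Igfbp4, Igfbp5 and Igfbp6 had the largest fold changes of the 7 genes that could be tested, and their promoters are shown because TonEBP binds DNA elements with the core TGGAAA. RefSeq annotation on GRCm38.p6 gave windows of 300 bases, with 250 before and 50 after the start, for 9 of the 10 genes. The Igfbp4 window was chr11:99040994-99041293 on the plus strand, the Igfbp5 window was chr1:72874816-72875115 on the minus strand, and the Igfbp6 window was chr15:102143936-102144235 on the plus strand. Capitals mark TATAAA on the gene's strand and TGGAAA on either strand.
Igfbp4: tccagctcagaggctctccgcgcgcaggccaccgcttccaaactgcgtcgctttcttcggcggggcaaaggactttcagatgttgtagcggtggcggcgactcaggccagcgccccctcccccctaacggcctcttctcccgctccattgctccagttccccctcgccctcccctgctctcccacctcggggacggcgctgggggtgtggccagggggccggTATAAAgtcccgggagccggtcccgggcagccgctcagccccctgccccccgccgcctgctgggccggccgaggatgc
Igfbp5: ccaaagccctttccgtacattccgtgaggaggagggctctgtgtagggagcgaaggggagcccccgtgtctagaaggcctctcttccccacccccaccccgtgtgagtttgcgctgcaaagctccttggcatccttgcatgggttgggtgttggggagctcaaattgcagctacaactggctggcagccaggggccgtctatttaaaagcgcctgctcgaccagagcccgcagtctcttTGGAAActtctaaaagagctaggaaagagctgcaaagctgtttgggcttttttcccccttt
Igfbp6: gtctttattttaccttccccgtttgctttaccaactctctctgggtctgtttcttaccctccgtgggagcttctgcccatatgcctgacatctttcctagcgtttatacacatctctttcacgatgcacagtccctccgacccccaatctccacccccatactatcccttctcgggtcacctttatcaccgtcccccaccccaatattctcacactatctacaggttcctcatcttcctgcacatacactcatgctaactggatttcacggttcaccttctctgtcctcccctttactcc

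The Igfbp4 window had a GC content of 71.3% and held TATAAA 28 bases before the start, with no TGGAAA. The Igfbp5 window had a GC content of 56.3% and held TGGAAA 11 bases before the start, in a stretch that also matched the longer TonE consensus. The GENCODE start of Igfbp5 lay upstream of this TGGAAA, so its place relative to the start depends on the annotation. The Igfbp6 window, with a GC content of 49.7%, held neither TATAAA nor TGGAAA. Its RefSeq start lay 176 bases upstream of the GENCODE start. The window did not reach the GENCODE start, and the bases just before that start were not searched. Among the 10 windows of the 9 genes, 2 held TGGAAA (those of Igfbp5 and Igf1) and 1 matched the TonE consensus. The GENCODE start of Igf1 lay upstream of its whole window. Over 32851 promoter windows of the same length, 21.4% held TGGAAA on either strand, 4.96% the TonE consensus and 8.32% TATAAA on the gene's strand. A match of letters is not a binding site.

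Of the 10 genes, 7 passed the filter on low counts and were tested. Among them 4 were called, and all 4 were binding proteins that were higher in sh-TonEBP (Igfbp4, Igfbp5, Igfbp6 and Igfbp7). None of the 7 was called lower. Over all 11943 genes tested, 52.5% were called, 26.3% higher and 26.2% lower, so calls were common in this comparison. The groups did not overlap in 6 of the 7 genes (all but Insr), against 62.7% of all genes tested.

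**Figure D1:**
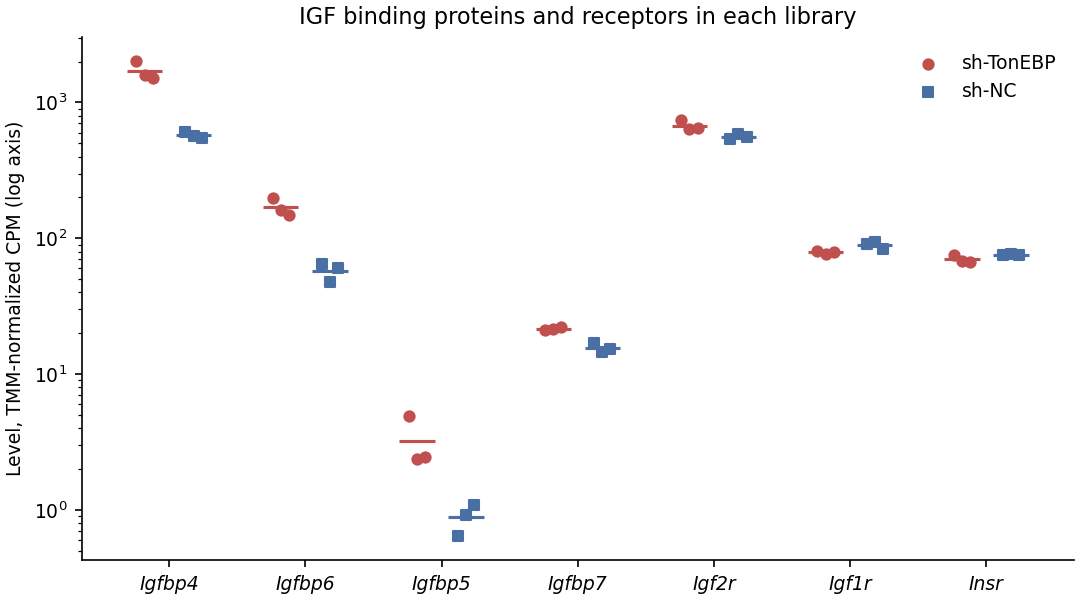
Level of each of the 7 tested genes in CPM on a log axis, with 1 point per library, a line at the mean of each group (n = 3 each), and sh-TonEBP (red circles) left of sh-NC (blue squares). The points of Igfbp4 lie at 1512 to 2034 CPM in sh-TonEBP and at 546 to 607 CPM in sh-NC, whereas those of Insr overlap.

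Igfbp4 encodes a binding protein that mostly restrains IGF action. It had 2034, 1596 and 1512 CPM in sh-TonEBP, against 607, 566 and 546 CPM in sh-NC. The lowest sh-TonEBP library was above the highest sh-NC library by a wide margin, and replicate 1 was the highest in each group. The log2 fold change was 1.58 (SE 0.14, 95% interval 1.28 to 1.88), which is 2.99-fold (adjusted p = 7.7e-06).

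Igfbp6 encodes the binding protein that prefers IGF-II to IGF-I. Its level was 199, 161 and 149 CPM in sh-TonEBP and 64.5, 47.6 and 60.0 CPM in sh-NC. The groups were well apart, and the same sh-TonEBP library was highest as for Igfbp4. The change was close in size to that of Igfbp4, with a log2 fold change of 1.56 (SE 0.15, 95% interval 1.24 to 1.88), or 2.95-fold (adjusted p = 1.1e-05).

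Igfbp5, whose product also binds extracellular matrix, was near the lower end of detection. It had 78, 38 and 34 counts in sh-TonEBP, against 10, 14 and 17 counts in sh-NC. In CPM these were 4.89, 2.39 and 2.45 in sh-TonEBP and 0.641, 0.928 and 1.09 in sh-NC, so replicate 1 of sh-TonEBP stood above its own group. The log2 fold change was 1.87 (SE 0.38, 95% interval 1.04 to 2.70; adjusted p = 0.0016). This interval includes the values of Igfbp4 and Igfbp6, and without sh-TonEBP replicate 1 the log2 fold change was 1.44 (adjusted p = 0.0084).

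Igfbp7 encodes a matrix-associated member that binds IGFs weakly. It had 21.2, 21.5 and 22.3 CPM in sh-TonEBP, against 16.9, 14.5 and 15.3 CPM in sh-NC. The groups did not overlap but lay close, with a log2 fold change of 0.48 (SE 0.14, 95% interval 0.18 to 0.77; adjusted p = 0.011). Without sh-NC replicate 3 it was no longer called (adjusted p = 0.053). The gene overlaps Polr2b on the opposite strand, which had 3638 to 5043 counts per library. The strand setting of the counting is not given in the sources used here. Reads from the stretch shared with Polr2b therefore cannot be assigned to either gene with certainty, and the size of that stretch was not measured.

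The remaining binding proteins on the list were not detected. Igfbp2, a binding protein abundant in brain fluid, and Igfbp3, the main carrier of IGFs in blood, had 0 counts in all 6 libraries. At these depths 0 counts allow up to 0.186 to 0.220 CPM in a library, taking 3 counts as the limit and covering counting error only. Igfbp2 and the called Igfbp5 are neighbors on chromosome 1, with 0 genes starting between them. Igfbp1, which was not among the 10 genes, was also at 0 in all libraries.

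Some markers of other cell types were also higher in sh-TonEBP, as were 26.3% of all genes tested. Of 11 fibroblast markers 8 were tested, of which 7 were higher and 0 lower in sh-TonEBP, and their summed level over the list was 2161 to 2490 CPM in sh-TonEBP and 774 to 904 CPM in sh-NC. The list includes Col3a1, a fibrillar collagen gene, with 1372 ± 95 CPM in sh-TonEBP and 342 ± 6.35 CPM in sh-NC (SD, n = 3 each), whereas Thy1 was at 0 in all libraries. Calls in the other lists rest on few tested genes and are not read as results about those cell types. Of the smooth muscle markers 3 of 3 tested were higher (summed level 19.6 to 23.9 CPM in sh-TonEBP and 8.38 to 10.1 CPM in sh-NC), and of those of neurons and astrocytes 2 of 4 (19.2 to 25.7 CPM in sh-TonEBP and 9.36 to 12.1 CPM in sh-NC). Of the epithelial markers 1 of 3 tested was higher, the keratin gene Krt8, and the summed level was 1210 to 1519 CPM in sh-TonEBP and 619 to 753 CPM in sh-NC. Most of this sum was Krt8, with 1198 ± 142 CPM in sh-TonEBP and 565 ± 58.1 CPM in sh-NC. Of the 9 epithelial markers listed, 6 were under 1 CPM in every library. Of the endothelial markers 0 of 2 tested were called (3.45 to 4.32 CPM in sh-TonEBP and 4.94 to 6.59 CPM in sh-NC). Whether this RNA came from the BV2 cells themselves or from other cells was not tested. In bulk RNA more cells of a type and more RNA per cell cannot be told apart.

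**Figure D2:**
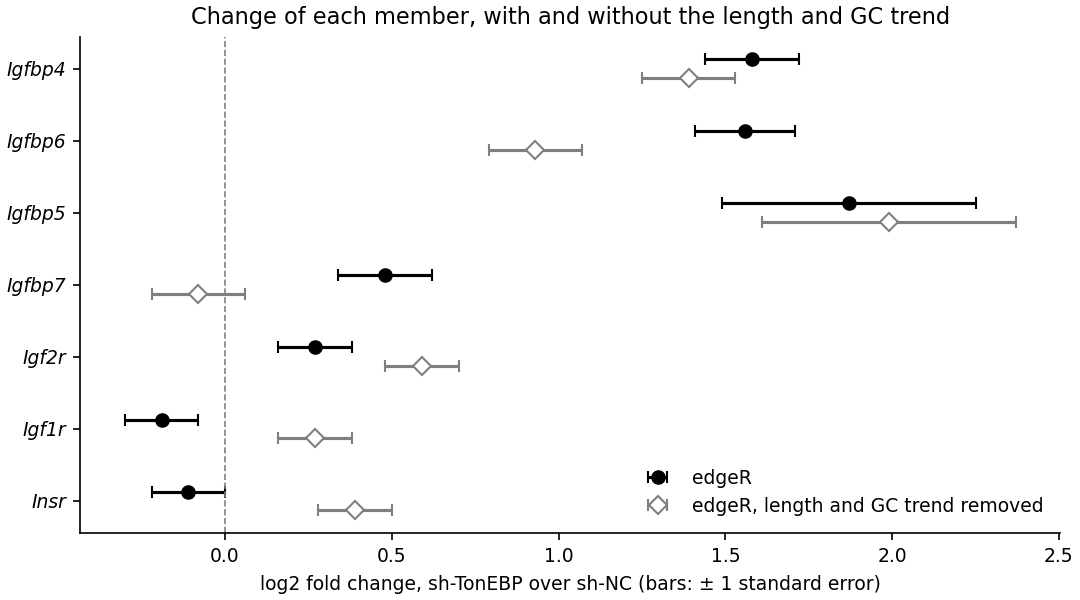
log2 fold change of each tested gene, sh-TonEBP over sh-NC, with bars of 1 SE, as fitted (black) and after removal of the length and GC trend (open gray). The fitted values of Igfbp4, Igfbp5 and Igfbp6 lie between 1.56 and 1.87, and those of the receptor genes between -0.19 and 0.27.

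None of the 3 receptor genes was called. Igf1r had 80.9, 76.5 and 79.4 CPM in sh-TonEBP, against 91.1, 94.6 and 83.6 CPM in sh-NC. All sh-TonEBP libraries were below all sh-NC libraries, with a log2 fold change of -0.19 (SE 0.11, 95% interval -0.42 to 0.05; adjusted p = 0.16).

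Insr had 75, 68.0 and 67.1 CPM in sh-TonEBP, against 75.1, 76.5 and 74.9 CPM in sh-NC. Replicate 1 of sh-TonEBP lay within the sh-NC range, and the log2 fold change was -0.11 (SE 0.11, 95% interval -0.34 to 0.12; adjusted p = 0.41). The ratio of Igf1r to Insr, which form hybrid receptors, was 0.884, 0.922 and 0.970 on the per-length scale in sh-TonEBP and 0.994, 1.01 and 0.915 in sh-NC. These ratios overlapped between the groups.

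Igf2r had 737, 641 and 646 CPM in sh-TonEBP, against 534, 590 and 553 CPM in sh-NC. Each sh-TonEBP library was above each sh-NC library, but the change did not pass the threshold, with a log2 fold change of 0.27 (SE 0.11, 95% interval 0.02 to 0.52; adjusted p = 0.062). DESeq2 put it on the other side of the threshold (log2 fold change 0.28, adjusted p = 0.048). Its antisense RNA Airn overlaps it and was not analysed here.

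Almost no ligand RNA was found. Igf1 had 2, 3 and 0 counts in sh-TonEBP and 1, 3 and 0 counts in sh-NC, which is too few for a comparison. Igf2, Ins1 and Ins2, the genes of IGF-II and insulin, were at 0 in all 6 libraries. The medium contained serum, a source of growth factors that RNA-seq of the cells does not measure.

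Levels of different genes were compared per transcript length, in TPM computed from the counts and the longest protein-coding transcript. In sh-TonEBP the order was Igfbp4 (1049 ± 165 TPM), Igfbp6 (357 ± 51.5 TPM), Igf2r (178 ± 16.0 TPM), Igfbp7 (42.5 ± 3.04 TPM), Insr (17.6 ± 1.21 TPM), Igf1r (16.3 ± 1.11 TPM) and Igfbp5 (1.27 ± 0.551 TPM; SD, n = 3 each). In sh-NC it was Igfbp4 (390 ± 10.9 TPM), Igf2r (164 ± 12 TPM), Igfbp6 (134 ± 18.4 TPM), Igfbp7 (33.8 ± 1.76 TPM), Insr (21.1 ± 0.689 TPM), Igf1r (20.5 ± 1.27 TPM) and Igfbp5 (0.387 ± 0.107 TPM). Igfbp6 thus stood above Igf2r in sh-TonEBP and below it in sh-NC, while Insr and Igf1r overlapped in both groups. The trend of fold changes with length and GC content, described below, was not removed from the TPM. It was 0.63 for Igfbp6 and -0.32 for Igf2r, so their order in sh-TonEBP depends on it in part. Igfbp4 ranked 125 of 21795 genes by TPM in sh-TonEBP and 300 in sh-NC. The whole TPM scale was shifted between the groups by a median log2 ratio of -0.15, against 0.00 for CPM, so tests and fold changes between the groups used CPM, and ranks, sums and ratios in TPM are descriptions without a test.

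Within a library, the TPM of Igfbp4, Igfbp5, Igfbp6 and Igfbp7 added up to 103, 86.5 and 78.6 times that of Igf1r in sh-TonEBP and to 28.9, 24.5 and 28.6 times in sh-NC. Igfbp4 made up 71.9% to 72.9% of the sum in sh-TonEBP and 68.1% to 72.8% in sh-NC. The shares overlapped between the groups, and the sums did not. The trend with length and GC content was left in these values as well, and it was 0.19 for Igfbp4 and -0.46 for Igf1r.

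**Figure D3:**
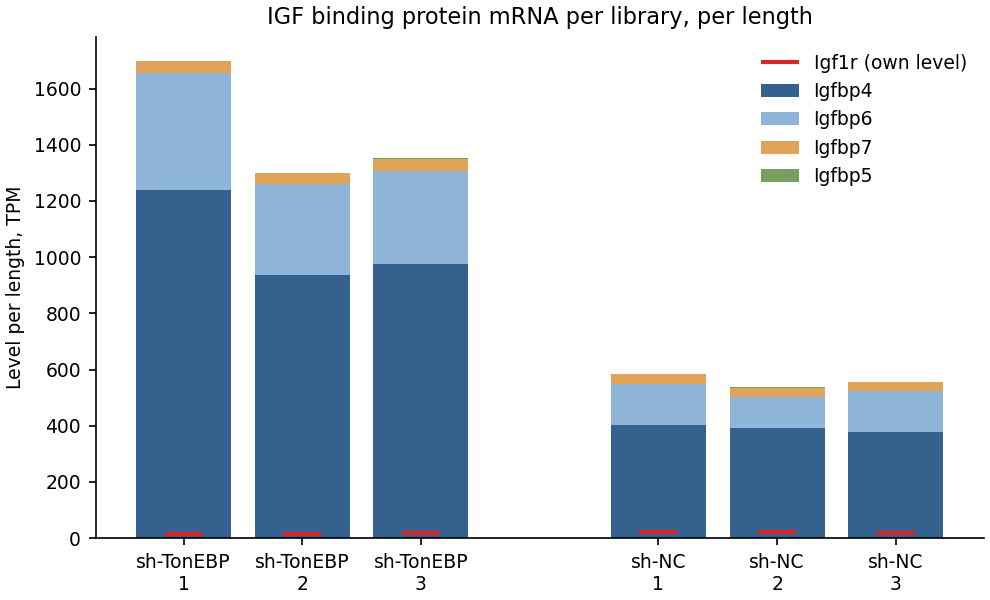
Stacked bars of the TPM of Igfbp4, Igfbp6, Igfbp7 and Igfbp5 in each library, with the level of Igf1r as a red line. The bars reach 1301 to 1698 TPM in sh-TonEBP and 537 to 583 TPM in sh-NC, and Igfbp5 is too low to be seen.

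Fold changes across all genes varied with transcript length and GC content. The Spearman correlation across 11929 genes, which are not independent replicates, was -0.3 with length and 0.43 with GC content. When genes were sorted by length into 10 bins, the shortest bin (median 1006 bases) had a median log2 fold change of 0.43, and the longest bin (median 8299 bases) one of -0.40. The receptor genes have long transcripts, of 11409 bases for Igf1r, 9355 bases for Insr and 8887 bases for Igf2r, while those of Igfbp6 and Igfbp7 have 1112 and 1200 bases. The cause of the trend was not tested.

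With the trend removed, Igfbp4 (log2 fold change 1.39, adjusted p = 1.8e-05), Igfbp5 (1.99, adjusted p = 0.0015) and Igfbp6 (0.93, adjusted p = 3.8e-04) remained called higher. Igfbp6 then stood at 1.91-fold. Igfbp7 lost its call and its sign (-0.08, adjusted p = 0.67). The receptors moved the other way, to 0.59 for Igf2r (adjusted p = 0.0016), 0.39 for Insr (adjusted p = 0.012) and 0.27 for Igf1r (adjusted p = 0.058), so that Igf2r and Insr were called higher and Igf1r was not. The direction given for Igf1r, Insr and Igfbp7 therefore holds only for the values without this step.

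**Figure D4:**
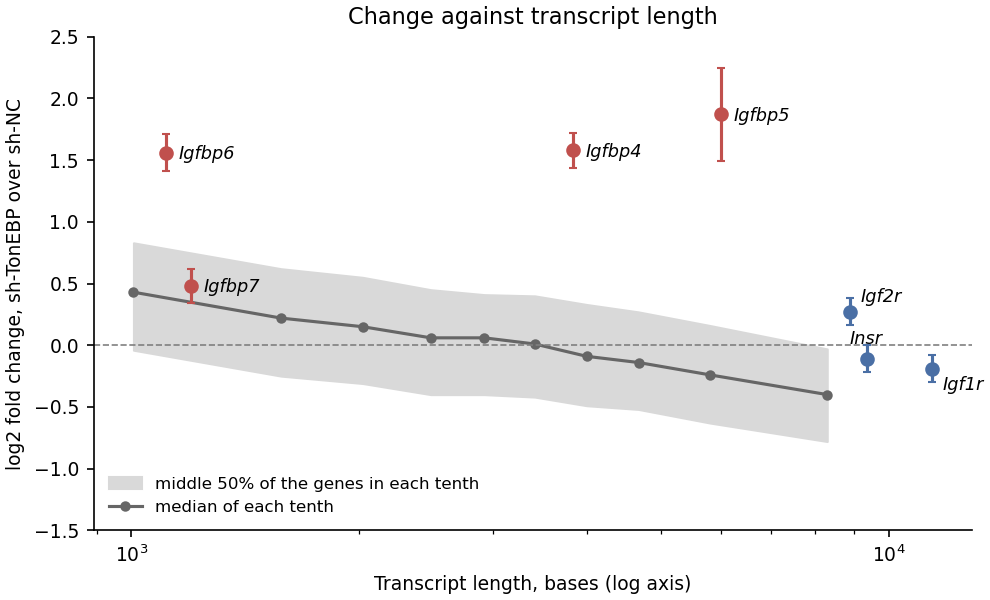
log2 fold change against transcript length in bases on a log axis, with the median and the middle 50% of all genes tested in each of 10 length bins in gray, and the 7 genes with SE bars (binding proteins red, receptors blue). Igfbp4, Igfbp5 and Igfbp6 lie above the gray band, Igfbp7 lies inside it, and the receptor genes lie at the long end, where the median is -0.40.

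Around these members, 151 further genes of the pathway were listed by role, of which 123 were tested, 30 were called higher (24.4%) and 38 lower (30.9%). Over all genes tested these shares were 26.3% and 26.2%, and neither count is read as a result about the pathway. Among the proteases that cut binding proteins and their inhibitors, 5 of 11 were tested and 3 were lower. Pappa, the protease that cuts IGFBP4, was at 0 in all libraries. Stc1, an inhibitor of that protease, had 3.83 ± 0.772 CPM in sh-TonEBP and 15.2 ± 2.40 CPM in sh-NC (log2 fold change -1.98, SE 0.21, adjusted p = 2.0e-05). The metalloproteinase genes Adam9 (-0.70, adjusted p = 2.8e-04) and Adamts1 (-0.64, adjusted p = 0.0017) were lower as well.

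Of the proteins that share a domain with the binding proteins, 6 of 10 were tested, 1 was higher and 4 were lower. Kazald1, a secreted member, had 18.4 ± 2.83 CPM in sh-TonEBP and 6.73 ± 0.946 CPM in sh-NC (log2 fold change 1.45, adjusted p = 6.1e-05). Ccn1, a matricellular protein, had 49.7 ± 14.9 CPM in sh-TonEBP and 127 ± 35.5 CPM in sh-NC (-1.35, adjusted p = 0.0015). Crim1, a membrane protein with such a domain, was lower by a smaller amount (-0.47, adjusted p = 0.0056). Without sh-TonEBP replicate 2, sh-NC replicate 1 or sh-NC replicate 3, only 2 of these relatives were called lower.

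Receptor adaptors split, with 5 higher and 4 lower of 18 tested. Irs1, the docking protein of both receptor kinases, had 21.6 ± 2.59 CPM in sh-TonEBP and 36.4 ± 2.86 CPM in sh-NC (log2 fold change -0.75, adjusted p = 8.0e-04). Its relative Irs2 was not called (0.18, adjusted p = 0.20). Shc1, an adaptor toward Ras, was higher (0.65, adjusted p = 9.1e-04), and Sos2, a Ras exchange factor, was lower (-0.87, adjusted p = 1.9e-04). Inhibitors of receptors and adaptors also split, with 4 higher and 4 lower of 13 tested. The ubiquitin ligase gene Cblb (-0.84, adjusted p = 1.4e-04) and the pseudokinase gene Trib3 (-0.93, adjusted p = 1.7e-04) were among the lower ones, as was Ptprf, a receptor phosphatase (-1.27, adjusted p = 4.0e-04).

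In the PI3K and AKT list 6 were higher and 4 lower of 16 tested. Inpp4b, a phosphatase of PI3K lipid products, had 2.21 ± 0.499 CPM in sh-TonEBP and 16.9 ± 2.58 CPM in sh-NC (log2 fold change -2.92, SE 0.22, adjusted p = 2.3e-06). Akt1, an AKT kinase gene, was higher (0.64, adjusted p = 0.0010). Without sh-NC replicate 2, 2 genes of the list were called lower in place of 4. Of 18 TSC, mTOR and S6K genes 5 were higher and 5 lower. Rictor, the scaffold of mTOR complex 2, had 40.3 ± 8.70 CPM in sh-TonEBP and 100 ± 7.42 CPM in sh-NC (-1.32, adjusted p = 4.0e-05), and Deptor, an mTOR inhibitor, was also lower (-0.87, adjusted p = 1.1e-04). Gsk3a, a kinase that AKT inhibits, was higher (0.60, adjusted p = 0.0012).

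FOXO factors, which insulin and IGF signaling keep out of the nucleus, and the genes they induce had 2 higher and 5 lower of 16 tested. The stress gene Sesn1 had 73.3 ± 2.31 CPM in sh-TonEBP and 32.1 ± 4.02 CPM in sh-NC (log2 fold change 1.19, adjusted p = 2.0e-05), and Pink1, a kinase of mitochondrial quality control, was higher as well (58.9 ± 6.48 CPM in sh-TonEBP and 29.4 ± 6.73 CPM in sh-NC, adjusted p = 4.3e-04), while Klhl24 was lower (-0.75, adjusted p = 4.4e-04). Without sh-TonEBP replicate 3 or sh-NC replicate 3, 3 genes of the list were called lower in place of 5. A mixed list held the IGF2 mRNA-binding proteins, the LIN28 proteins, Hmga2 and imprinted genes, and 3 of its 5 tested genes were lower and 0 higher. Only 1 of the 3 encodes an IGF2 mRNA-binding protein, Igf2bp2 (-0.51, adjusted p = 0.0014). The others were Lin28b, a repressor of let-7 maturation (-1.40, adjusted p = 7.5e-05), and Hmga2, a chromatin protein (-0.72, adjusted p = 2.0e-04). The other IGF2 mRNA-binding protein genes, Igf2bp1 (0.44, adjusted p = 0.26) and Igf2bp3 (-0.01, adjusted p = 0.97), were not called.

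The mannose 6-phosphate sorting genes, which act with Igf2r, had 4 higher and 1 lower of 12 tested. Sort1, another sorting receptor, had 12.7 ± 0.285 CPM in sh-TonEBP and 5.30 ± 0.636 CPM in sh-NC (log2 fold change 1.26, adjusted p = 1.2e-04). Gga2, an adaptor at the trans-Golgi, was higher too (1.14, adjusted p = 5.4e-05), and M6pr, the smaller mannose 6-phosphate receptor, was not called (0.16, adjusted p = 0.23). Nagpa, which uncovers the mannose 6-phosphate tag, was higher (0.74, adjusted p = 9.8e-04). The single lower call of this list was lost without any 1 library other than sh-NC replicate 1. Of 14 tested partner receptors 3 were higher and 5 lower, among them Lrp2, or megalin, with 20.7 ± 1.11 CPM in sh-TonEBP and 60.9 ± 1.99 CPM in sh-NC (-1.56, adjusted p = 2.8e-06). Itga6, an integrin subunit, was lower (-1.34, adjusted p = 9.8e-06), and Egfr, with 8.88 ± 0.947 CPM in sh-TonEBP and 1.10 ± 0.416 CPM in sh-NC, was higher (adjusted p = 8.8e-06).

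The medians of these lists were close to that of all genes tested (0.00) for adaptors (0.06), PI3K and AKT (0.07) and TSC, mTOR and S6K (-0.03). They were 1.57 for the 4 tested binding proteins, -0.64 for the proteases and their inhibitors, and -0.51 each for the relatives of the binding proteins and for the mixed list with Lin28b, Hmga2 and the IGF2 mRNA-binding proteins. The other medians were -0.11 for the receptors, -0.28 for the inhibitors of receptors and adaptors, -0.21 for the FOXO list, 0.19 for mannose 6-phosphate sorting and -0.20 for partner receptors. With the length and GC trend removed, 26 of the 123 genes were called higher and 29 lower. Counts moved most in the adaptors (3 higher in place of 5), PI3K and AKT (2 lower in place of 4), TSC, mTOR and S6K (3 higher and 3 lower in place of 5 each), the FOXO list (4 higher in place of 2, 3 lower in place of 5) and mannose 6-phosphate sorting (2 higher in place of 4). After this step the medians of the lists in the order given were 0.01, 0.30, 0.15, 1.16, -0.51, -0.31, -0.50, 0.39, 0.03, -0.04, 0.20 and 0.03, and that of all genes tested was 0.02. The fitted trend also differed between the genes named above. It was -0.69 for Klhl24, -0.56 for Deptor, 0.42 for Gsk3a, 0.44 for Nagpa and 0.38 for Akt1, a large part of each fold change. For other genes it was small, such as Sesn1 (-0.02) and Ptprf (-0.05), or opposite in sign, such as Trib3 (0.40) and Egfr (-0.61).

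**Figure D5:**
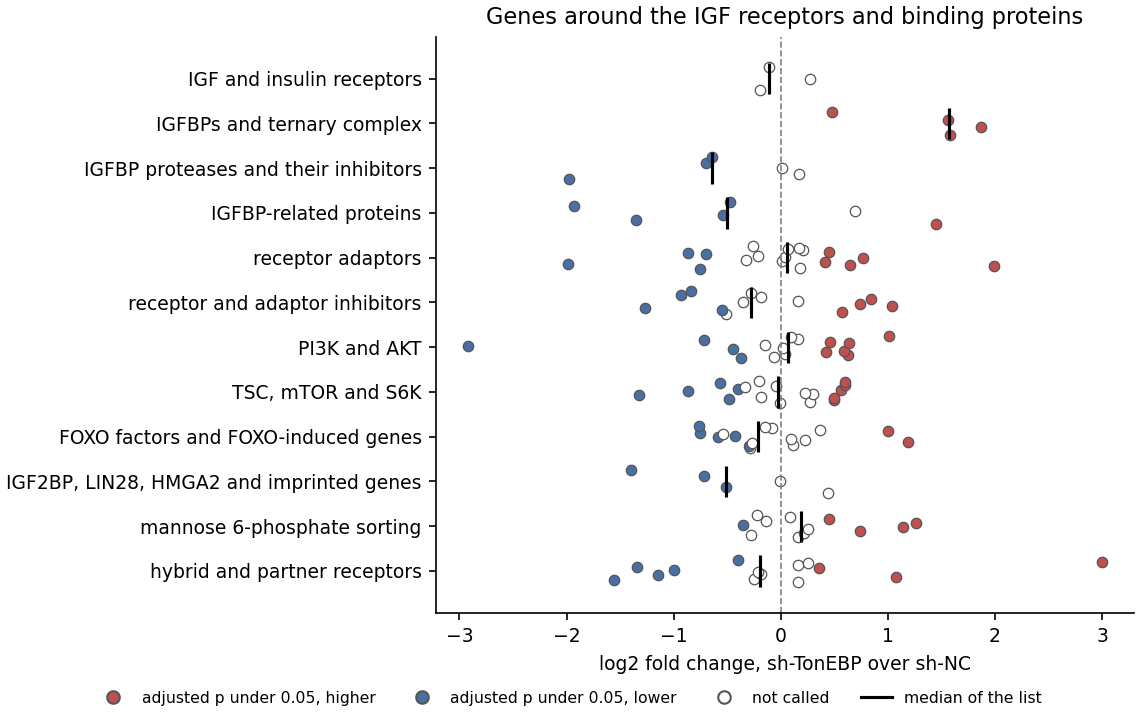
log2 fold change, sh-TonEBP over sh-NC, of each tested gene by role, with genes called higher in red, genes called lower in blue, genes not called open, and a bar at the median of each list. The bar of the binding proteins stands at 1.57, and that of the 3 receptor genes at -0.11.

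Across all genes tested, those whose CPM followed Igfbp4 most closely over the 6 libraries were Ctdsp1 (Pearson r = 0.9997), Prpf19 (0.9992) and Pld3 (0.9989). These values describe 6 points in 2 groups that share their libraries, and most of the likeness is the gap between the groups. Ctdsp1, a phosphatase of RNA polymerase II, had 120 ± 10.6 CPM in sh-TonEBP and 70.0 ± 1.98 CPM in sh-NC. Prpf19, a splicing factor, had 324 ± 28.4 CPM in sh-TonEBP and 182 ± 6.82 CPM in sh-NC. Their log2 fold changes were 0.78 for Ctdsp1 and 0.84 for Prpf19, and Pld3, a lysosomal exonuclease, had one of 1.22.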

How the data were processed

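RNA-seq of poly(A) RNA from 3 sh-TonEBP and 3 sh-NC libraries of BV2 cells was used. The authors deposited raw read counts per gene, which are not normalized. Tools named in the submitters' processing notes, without their roles, are HTSeq 0.9.1, HISAT2 2.0.5, DESeq 1.30.0 and cutadapt 1.15, and the build named is GRCm39. For the annotation release and the strand setting, the sources used here give nothing. Column names of the sh-TonEBP libraries lack the word TonEBP, and the assignment rests on there being no other shRNA than the scrambled one.

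Of 21899 identifiers 21795 were matched to a symbol, and the others held 0.0671% of counts. A chi-square test of counts between replicates gave at least 4.68 per degree of freedom, which is above sampling noise, and no library was taken as a duplicate. Genes passing filterByExpr (11943) were normalized with TMM factors and tested by the quasi-likelihood method of edgeR 4.0.16 (R 4.3.3; robust dispersions, no covariates), with Benjamini-Hochberg adjustment over all of them. The SE is the log2 fold change divided by the square root of F. The common biological coefficient of variation was 0.135. The steps were tested on simulated data in which few genes changed and no trend on length or GC content was built in. These settings are unlike the present data, so the test does not cover that trend.

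Transcript lengths and GC content came from GENCODE M21 on GRCm38, and promoters from RefSeq on GRCm38.p6. Since the table was made on GRCm39, the only coordinates given are those of the promoter windows, on GRCm38.p6. TPM were computed here from the deposited counts. The trend on length and GC content was a loess fit (span 0.5, degree 1) used as an offset. Alternatives were DESeq2 1.42.0, other normalizations, filters and thresholds, the replicate number as a block, and leaving out each library.

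The members and lists were chosen with earlier results of these data known. The text names the members, up to 3 genes of each list with the smallest p, regulators and ligands under the filter, and the 3 genes most correlated with the tested member of smallest p. A gene taken by this rule is not reported here. Irs2, M6pr, Igf2bp1, Igf2bp3 and the cell type markers were chosen for naming after their values were seen, as close relatives of named genes.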

Additional observations from a re-analysis of the deposited data

How the results depend on the processing

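Of 98 log2 fold changes of the 7 tested genes under 14 alternatives, 92 kept their direction and their side of the threshold. The exceptions were as follows. With the trend on length and GC content removed, Igf1r (0.27), Insr (0.39) and Igfbp7 (-0.08) changed sign, and Igf2r (0.59) and Insr gained a call as higher while Igfbp7 lost its call. Igf2r was also called by DESeq2 (0.28). Leaving out each library in turn moved Igfbp7 between 0.44 and 0.54, and it lost its call without sh-NC replicate 3 (adjusted p = 0.053, against 0.015 to 0.053 over these fits). The count of members called higher was 4, with 5 by DESeq2 and with the trend removed, and 3 without sh-NC replicate 3, at an adjusted p under 0.01, and at the cutoffs of the study (an absolute log2 fold change over 1 and an unadjusted p under 0.05). None was called lower under any of these. At the cutoffs of the study 10 of the other pathway genes were higher and 11 lower, against 30 and 38. With the replicate number as a block 6436 genes were called, against 6270, and no call of a member changed. Deviations of same-numbered libraries correlated by 0.18, 0.0557 and -0.0717, and not every library correlated best with its own number. Whether same-numbered libraries were prepared together cannot be told from these values. Depth limits Igfbp5, with 10 to 17 counts in sh-NC, and leaves Igf1 without a comparison.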
